A study of Mus musculus with 2 samples.

Results

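The 5 haemoglobin transcripts of the mouse lung droplets were *Hba-a1*, *Hba-a2*, *Hbb-bs*, *Hbb-bt* and *Alas2*, found by their gene symbols among 31053 measured genes. Lung cells of C57/B6 mice aged 2 to 4 months were captured in 1 normoxia library and 1 library taken after 3 weeks of hypoxia at 10% oxygen. In both, the lobes were rinsed of blood, dissociated and depleted of CD45+ leukocytes and CD326+ epithelial cells before droplet capture. The study names 3 wild-type animals for the hypoxia capture, but the sources used here do not say how they were divided among libraries. The normoxia library held 2223 droplets called as cells with 7630683 UMIs (unique molecular identifiers, each counting 1 captured molecule), and the hypoxia library held 809 with 2685345 UMIs. Neither condition has a second library, so values are compared without a test, and each interval in parentheses is a 95% interval that covers counting error only.

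Haemoglobin is a tetramer of α-globin and β-globin chains, each of which holds a haem group that binds oxygen. *Hba-a1* and *Hba-a2* encode the adult α chain, *Hbb-bs* and *Hbb-bt* encode the adult β chain of the haplotype carried by C57BL/6 mice, and *Alas2* encodes the erythroid enzyme of the opening step of haem synthesis. Maturing red cells make globin in large amounts, lose their nucleus and most other RNA, and keep globin mRNA for a while as reticulocytes. When blood cells break during tissue dissociation, their RNA floats in the suspension and enters droplets together with unrelated cells, so a globin UMI in a lung cell droplet need not come from that cell.

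The 2 α genes lie 12023 bases apart on chromosome 11 and the 2 β genes 12537 bases apart on chromosome 7 (GENCODE positions on GRCm38). *Hba-a1* spans chr11:32283511-32284465 and *Hba-a2* chr11:32296489-32297298, both on the plus strand. *Hbb-bt* spans chr7:103812524-103813996 and *Hbb-bs* chr7:103826534-103828096, both on the minus strand, and *Alas2* spans chrX:150547375-150570638 on the plus strand. The globin genes have 3 exons each and *Alas2* has 11. The stretches below are from the RefSeq promoter table for GRCm38.p6. They are shown for an α gene, a β gene and *Alas2*, whose transcripts were all found in the haemoglobin-rich droplets described below. The stretch of *Hbb-bs* lies inside its GENCODE span given above, because the RefSeq start used lies within that span. Capitals mark matches, on either strand, to the 4 short strings named after the sequences.
Hba-a2, chr11:32296441-32296470, plus strand: aggacacgcccttggagggcATATAAgtgc
Hbb-bs, chr7:103827929-103828008, minus strand: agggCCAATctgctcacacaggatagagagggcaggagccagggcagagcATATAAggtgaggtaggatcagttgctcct
Alas2, chrX:150547307-150547366, plus strand: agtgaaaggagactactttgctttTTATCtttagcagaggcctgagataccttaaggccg
The 30 bases shown for *Hba-a2* are also found, letter for letter, upstream of *Hba-a1*. In the 250 bases before the RefSeq start, each of the 4 globin genes held an ATATAA, which opened 31 bases before the start in *Hba-a2* and 30 bases before it in *Hbb-bs*, and *Alas2* held none. Of 32851 mouse promoters of that length, 9.10% held ATATAA or its reverse complement. CCAAT was present upstream of the 4 globin genes and in 33.8% of promoters. CACCC (52.0% of promoters) was present upstream of all 5 genes, as was the string GATAA (22.6%). A match is a string of letters and not a measured binding site.

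The α pair and the β pair are close copies, which limits how reads were divided between the members of a pair. Of the 90-base windows in the last 300 bases of the transcripts, where 3' libraries place their reads, 57.3% of those of *Hba-a1* also occur in *Hba-a2*, and 24.6% of those of *Hbb-bs* also occur in *Hbb-bt*. With 150-base windows the shares were 18.5% and 0%. For *Alas2* both were 0%. A 3' library counts a molecule once whatever its length, so UMI counts of the 5 genes are set side by side below without a length correction, and a level means UMIs per 1000000 UMIs of the same droplets (CPM).

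Almost all haemoglobin UMIs of the normoxia library sat in 6 of its 2223 droplets. These 6 haemoglobin-rich droplets, defined by at least 10 UMIs of the 5 transcripts that make up at least 5% of the droplet, held 16267 of the library's 16583 haemoglobin UMIs, or 98.1% (97.9 to 98.3). They held 4171, 3830, 3756, 2596, 1596 and 318 haemoglobin UMIs, which was 92.1%, 91.9%, 95.3%, 88.7%, 75.5% and 59.2% of all their UMIs. The hypoxia library held no such droplet among 809, a count that allows a share of up to 0.371%. Its highest droplet held 5 haemoglobin UMIs. The share of rich droplets in normoxia was 0.270% (0.0991 to 0.587), below what a count of 0 allows in hypoxia, so a difference between the libraries in the frequency of such droplets was not detectable at these numbers.

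The gap between the rich droplets and the rest was wide. No droplet of either library held between 13 and 318 haemoglobin UMIs. Highest outside the rich droplets were 3 normoxia droplets with 13, 11 and 10 haemoglobin UMIs, which met the UMI part of the threshold but made up 0.407%, 0.680% and 0.222% of their UMIs, and in hypoxia 2 droplets with 5 each. The plot of haemoglobin UMIs against other UMIs shows the 6 rich droplets apart from all others.

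**Figure D1:**
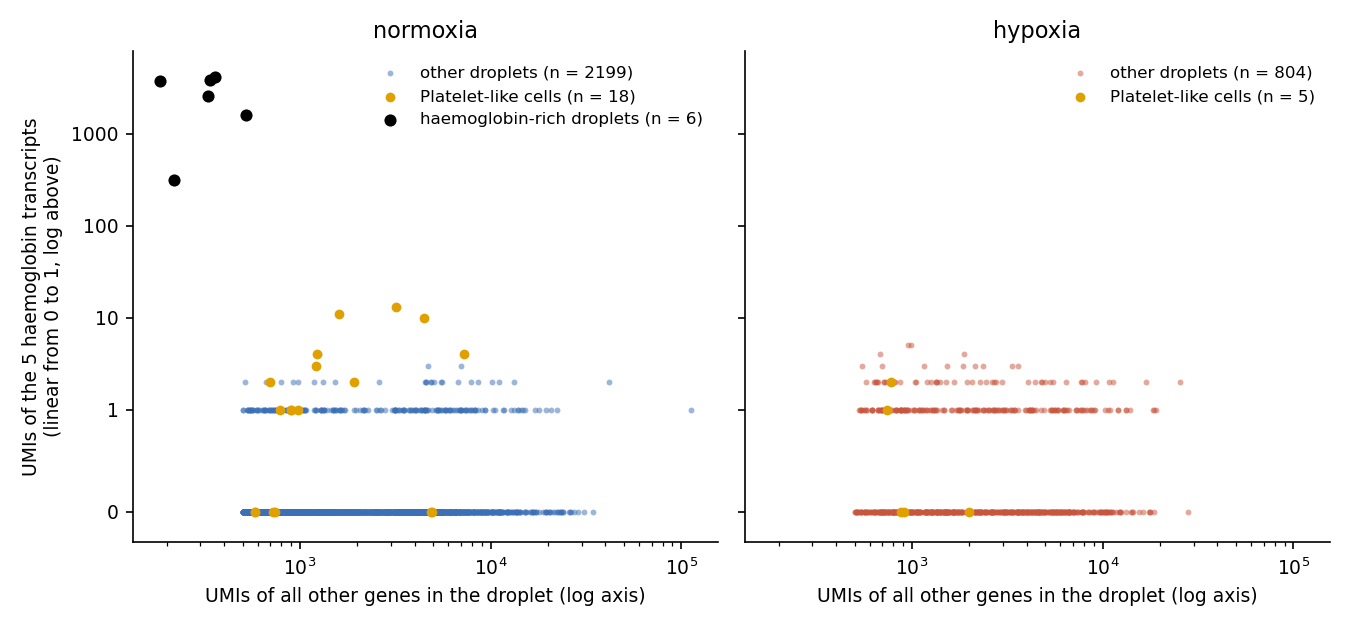
Each point is 1 droplet, with UMIs of all other genes on the horizontal log axis and UMIs of the 5 haemoglobin transcripts on the vertical axis (linear from 0 to 1, log above), for normoxia on the left and hypoxia on the right. The 6 haemoglobin-rich droplets (black) sit at 318 to 4171 haemoglobin UMIs with few other UMIs, and the Platelet-like cells (yellow) of normoxia reach 13.

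Beside haemoglobin, the rich droplets were poor in RNA. They held 184 to 519 UMIs of other genes, 79 to 167 detected genes and 0.178% to 1.12% mitochondrial UMIs. All 6 were removed by the limit of 200 detected genes that the study's methods set, so none of them was among the 1348 normoxia cells kept. The other 10 normoxia droplets with fewer than 200 genes carried at most 1 haemoglobin UMI each.

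The chains were nearly balanced within the rich droplets. Summed over the 6, *Hbb-bs* gave 43.0% of the haemoglobin UMIs (6992), *Hba-a1* 27.2% (4422), *Hba-a2* 17.6% (2862), *Hbb-bt* 12.01% (1954), and *Alas2* 37 UMIs. The α to β ratio was 0.814 (0.789 to 0.840). In droplet order by haemoglobin content the ratio was 0.808, 0.742, 0.828, 0.931, 0.692 and 1.69, so the droplet with 318 haemoglobin UMIs was the one with more α than β.

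The balance within a pair differed between rich droplets by more than counting error. *Hba-a1* made up 51.5% (49.2 to 53.8) of the α UMIs in the droplet with 4171 haemoglobin UMIs and 78.2% (76.2 to 80.2) in the droplet with 3756. In the other 4 it lay between 54.6% and 65.3%. For *Hbb-bs* the share of β UMIs was 72.5% (70.6 to 74.3) in the droplet with 4171 haemoglobin UMIs and between 77.9% and 81.9% in the other 5. *Alas2* had between 1 and 10 UMIs in each of the 6 droplets and only 3 UMIs in the 3026 other droplets of both libraries.

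**Figure D2:**
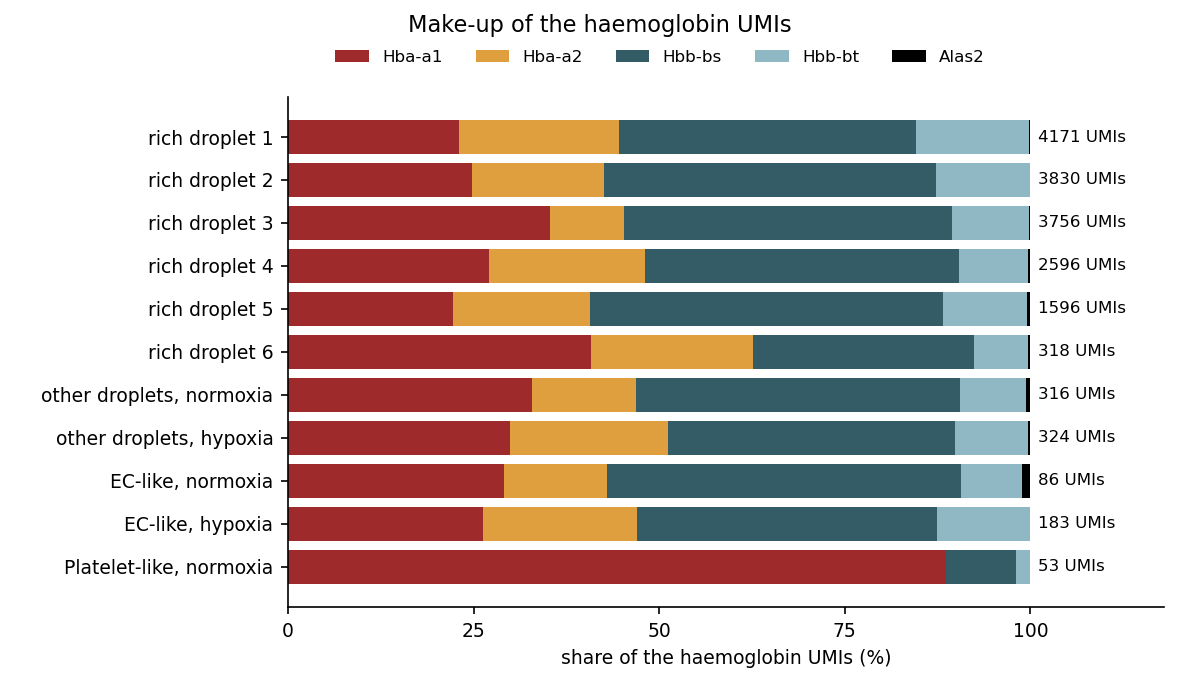
Stacked bars give the share in percent of each haemoglobin transcript among the haemoglobin UMIs of each rich droplet, of the other droplets, and of the EC-like and Platelet-like cells, with the number of UMIs at the right. The Platelet-like bar holds 88.7% *Hba-a1* and no *Hba-a2*, unlike every other bar.

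The other UMIs of the rich droplets, 1946 in all, held many transcripts known from late red cells. Levels here are UMIs per 1000000 UMIs outside the 5 transcripts, in the rich against the 3026 other droplets. Over 12470 genes outside the 5 with at least 20 UMIs, 86 were at least 2-fold higher in the rich droplets with an interval above 1 (0.69%), and the median ratio was 0, because most genes were not seen there. Of 12 red cell transcripts shared with other tissues, 11 had at least 20 UMIs and all 11 were higher by that rule, with a median ratio of 66.4. *Bpgm*, whose product makes the metabolite that lowers the oxygen affinity of haemoglobin, was 280-fold higher (138 to 511). *Slc25a37*, the mitochondrial iron importer, was 155-fold higher (70.0 to 297), and *Ube2l6*, a ubiquitin-like conjugating enzyme, 314-fold higher (165 to 548). *Bnip3l*, which clears mitochondria from maturing red cells, was 30.4-fold higher (17.0 to 50.2).

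Of 15 measured genes of a list of erythroid genes, 4 had a UMI in the rich droplets, with 13 UMIs there and 5 elsewhere over the list. Of these, *Slc4a1* (the band 3 anion exchanger) had 5 UMIs there and 1 elsewhere, and *Tspo2* 1 and 0, both named after their values were seen. The droplet with 1596 haemoglobin UMIs held 9 of the 13 UMIs. The transcription factors *Klf1* and *Gata1* had 0 UMIs in the rich droplets and 1 each elsewhere. Of 8 genes of haem synthesis outside *Alas2*, *Fech*, the enzyme that inserts iron, had 8 UMIs in the rich droplets, 205-fold above the rest (87.5 to 413), and the other 7 had 0 there.

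Among all genes outside the 5, 6 reached 20 UMIs in the rich droplets. They were *Gm42418* and *AY036118*, loci known to collect ribosomal RNA reads, with 868 and 91 UMIs, then *mt-Co1* with 33, *Fam46c* (a poly(A) polymerase) with 31, and *Mkrn1* (a ubiquitin ligase) and *Oaz1* (the ornithine decarboxylase antizyme) with 23 each. Of these 6, *Fam46c* had the highest ratio, at 1976 (1264 to 3019), followed by *Mkrn1* at 265 (166 to 403). *Gm42418* alone made up 44.6% of the other UMIs of the rich droplets, against 3.26% in the other droplets. RNA of lung epithelium was also found in them, with 8 UMIs of *Scgb1a1* and 3 of *Sftpc*. *Sftpc* was lower there than elsewhere, at 0.146-fold (0.0302 to 0.427), and for *Scgb1a1* the interval of the ratio held 1 (0.663, 0.286 to 1.31).

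**Figure D3:**
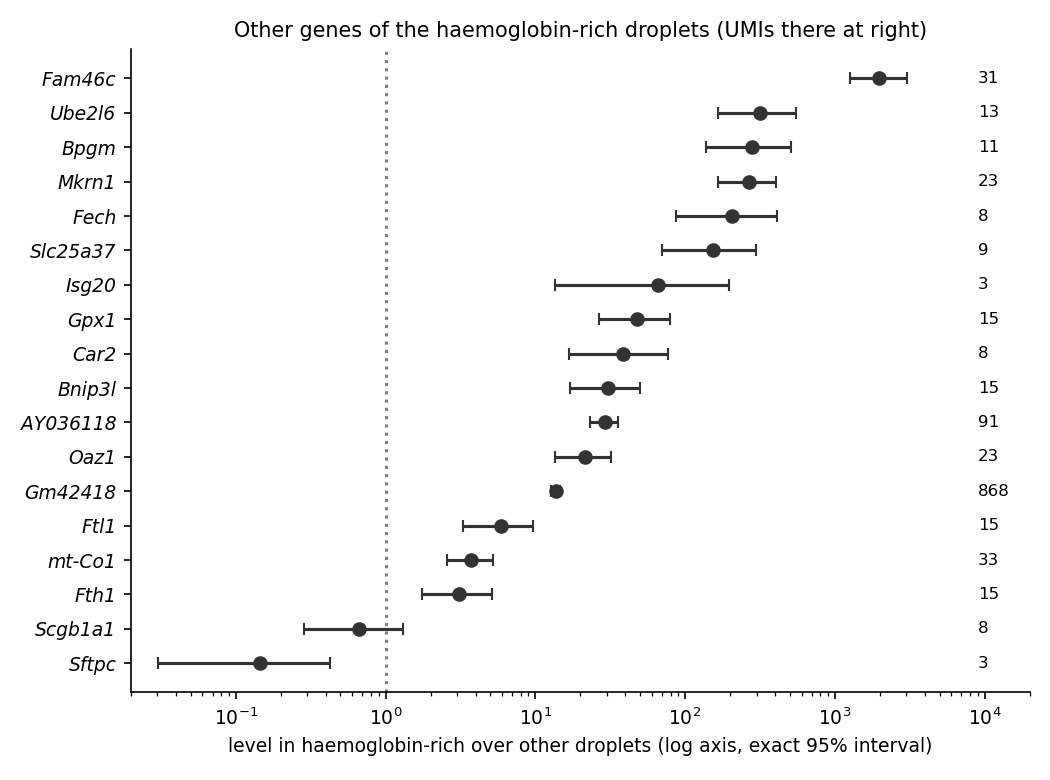
Points give the level of genes named by the rule in the 6 rich droplets over that in the 3026 other droplets on a log axis, with exact conditional 95% intervals and the number of UMIs in the rich droplets at the right. Transcripts such as *Fam46c*, *Ube2l6* and *Bpgm* lie far right of 1 (dotted line), and the alveolar transcript *Sftpc* lies left of it. Most *Sftpc* UMIs of the other droplets came from the deepest quartile of normoxia, where the median droplet held 0.

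Outside the rich droplets, haemoglobin UMIs were sparse and spread over many droplets, and more so in hypoxia. The 2217 other normoxia droplets held 316 such UMIs and 243 of them had at least 1 (11.0%, 9.69 to 12.3). The 809 hypoxia droplets held 324, and 244 had at least 1 (30.2%, 27.0 to 33.5). In hypoxia 183 droplets had exactly 1 UMI, 48 had 2 and 13 had 3 or more. The variance of the count per droplet divided by its mean, which is 1 for UMIs placed at random at an equal rate, was 1.26 in hypoxia and 2.33 in normoxia. Among kept cells of normoxia it was 2.93, and 1.21 without the Platelet-like cells described below.

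Among kept cells (200 to 4000 genes, mitochondrial UMIs up to 5%), those of hypoxia carried a higher level. The level of the 5 transcripts was 41.0 CPM (35.6 to 46.9) in 1348 normoxia cells and 119 CPM (105 to 133) in 689 hypoxia cells, a hypoxia/normoxia ratio of 2.89 (2.41 to 3.48). Per cell, the mean was 0.157 UMIs in normoxia and 0.395 UMIs in hypoxia. *Hba-a1* had 82 and 77 UMIs, *Hba-a2* 26 and 58, *Hbb-bs* 85 and 107, *Hbb-bt* 17 and 29, and *Alas2* 2 and 1 in normoxia and hypoxia. The ratio of levels was 2.12 (1.53 to 2.92) for *Hba-a1*, 5.03 (3.12 to 8.32) for *Hba-a2*, 2.84 (2.11 to 3.82) for *Hbb-bs* and 3.85 (2.04 to 7.46) for *Hbb-bt*. The 18 Platelet-like cells of normoxia carried 47 of its 82 *Hba-a1* UMIs, and without Platelet-like cells the ratio was 4.74 (3.13 to 7.31) for *Hba-a1* and 5.00 (3.10 to 8.28) for *Hba-a2*.

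All 4 globin genes were at least 2-fold higher in hypoxia with an interval above 1, against 2.85% of 11668 genes with at least 20 UMIs. Their median ratio was 3.34, and that of all these genes was 0.987. *Alas2* had too few UMIs to be counted. If all droplets are counted, the 6 rich droplets turn the direction, with 2173 CPM for normoxia against 121 CPM for hypoxia, a ratio of 0.0555 (0.0496 to 0.0620). The droplets removed by the limits, without the rich ones, had 42.6 CPM in normoxia and 133 CPM in hypoxia, close to the kept cells. The shares of kept cells with a haemoglobin UMI were 11.1% (9.50 to 12.9) and 30.2% (26.8 to 33.8), at median depths of 3453 and 2224 UMIs. After thinning each cell to 1000 UMIs they were 4.01% (2.93 to 5.35) of 1097 normoxia cells and 12.9% (10.1 to 16.0) of 528 hypoxia cells, with 251 and 161 shallower cells left out.

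The level in CPM was higher in hypoxia in endothelial and fibroblast classes, and per cell the interval of the fibroblast ratio held 1. Classes were named from marker genes in a clustering without the 5 transcripts or the erythroid lists. A cluster shallow for its libraries and with none of its own markers among its leading genes was left unnamed. That rule left out a cluster of 136 normoxia and 38 hypoxia cells (median 752 UMIs, 8 of 12 EC markers). It also left out a cluster of 47 normoxia and 7 hypoxia cells (median 990 UMIs, 10 of 12). A cluster with more markers of another list than of its own among its leading genes was also left unnamed. Such clusters nearest to the EC list held 7 normoxia and 61 hypoxia cells, 32 and 24, and 24 and 1. The cluster led by *C130074G19Rik* (7 normoxia and 109 hypoxia cells, median 1039 UMIs, 10 of 12) stayed EC-like. The part of these rules in the EC-like ratio was not tested. In EC-like (endothelial) cells, whose 12 measured markers were all detected in both libraries, the summed level was 24.9 CPM (19.95 to 30.8) in 774 normoxia cells and 93.2 CPM (80.2 to 108) in 489 hypoxia cells, a ratio of 3.74 (2.88 to 4.89), or 3.37 in UMIs per cell. The shares of EC-like cells with a UMI were 9.43% and 29.2%, at median depths of 4093.5 and 3343 UMIs. All 4 globin genes were again at least 2-fold higher with an interval above 1, against 2.79% of 10377 genes, with ratios from 3.17 for *Hbb-bs* to 5.77 for *Hbb-bt*. Fibroblast-like cells had 35.3 CPM (23.6 to 50.6) in 189 normoxia cells and 119 CPM (56.8 to 218) in 35 hypoxia cells, a ratio of 3.36 (1.46 to 7.10). Their clusters differed in make-up between the libraries. The one led by *Mfap4* (median 995 UMIs, 7 of 12 markers) held 92 normoxia and 31 hypoxia cells, and that led by *Fat3* 83 and 3. *Pdgfra* was found in 67.2% of the normoxia and 31.4% of the hypoxia cells. The part of this difference in the ratio was not tested. In UMIs per cell the Fibroblast-like ratio was 1.86 (0.810 to 3.93), and after thinning to 1000 UMIs 5.84% of 137 normoxia and 8% of 25 hypoxia cells had a haemoglobin UMI, with intervals that overlapped. A haemoglobin UMI was found in 13.2% of the Fibroblast-like cells of normoxia and 28.6% of those of hypoxia, at median depths of 3411 and 1620 UMIs. AT1-like cells of the alveolar epithelium had 33.9 CPM from 4 UMIs and 112 CPM from 2 UMIs, and the interval of their ratio held 1 (0.299 to 23.1).

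Normoxia and hypoxia EC-like cells were mostly of different clusters. The 3 clusters with most normoxia EC-like cells were led by *Lpl* (180 cells, against 7 in hypoxia), *Gm16486* (145 against 4) and *Socs3* (128 against 7). The 3 with most hypoxia EC-like cells were led by *C130074G19Rik* (109 cells, against 7 in normoxia), *Slc26a10* (108 against 12) and *Ntrk2* (97 against 7). Of 13 EC-like clusters, 5 had at least 10 cells in each library, and in 3 of them the hypoxia level was higher, with an interval above 1 in the cluster led by *Clec9a* (4.95, 1.76 to 19.2). In the cluster led by *Slc26a10* the ratio was 0.822 (0.263 to 4.14), but 1.59 (0.510 to 8.02) per cell, with median depths of 3506.5 UMIs in normoxia and 6318.5 in hypoxia, and in that led by *Atp13a3* normoxia had 5 UMIs and hypoxia 0. The cluster led by *C130074G19Rik* was shallow in hypoxia, with a median of 1045 UMIs per cell, and held 44 of the 183 haemoglobin UMIs of hypoxia EC-like cells.

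Among named classes with at least 10 cells in a library, the intervals of the levels outside the Platelet-like cells overlapped. In normoxia the order from low to high was Lymphatic EC-like (0 UMIs in 11 cells, upper bound 88.2 CPM), Pericyte-like (24.9 CPM from 3 UMIs), EC-like, AT1-like and Fibroblast-like. The Fibroblast-like level was 1.41 times the EC-like level in normoxia (0.894 to 2.18) and 1.27 times in hypoxia (0.599 to 2.39). Cells of unnamed clusters had 70.1 CPM in normoxia and 391 CPM in hypoxia, 2.81 (1.86 to 4.18) and 4.197 (3.09 to 5.64) times the EC-like levels. They were shallow, with median depths of 948 and 890.5 UMIs, in part because the naming rule left shallow clusters unnamed. In UMIs per cell they did not stand out, at 1.19 (0.783 to 1.76) and 1.22 (0.895 to 1.63) times the EC-like means. None of the 6 rich droplets was in a class, so the levels are the same with and without them.

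**Figure D4:**
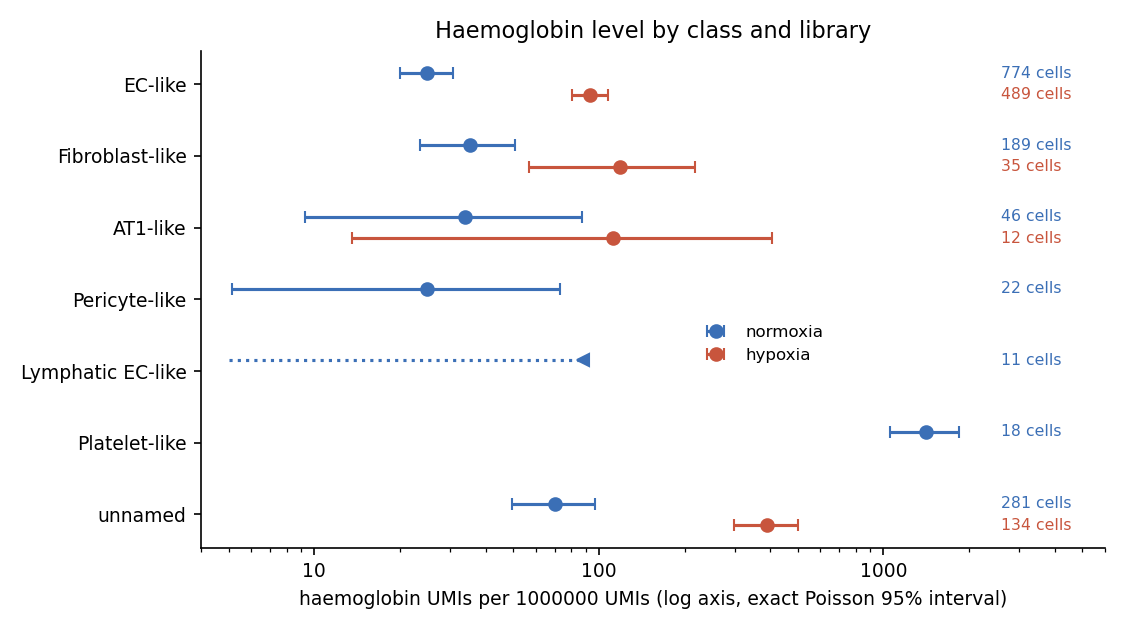
Points give the summed level of the 5 haemoglobin transcripts in CPM on a log axis with exact Poisson 95% intervals, for each class with at least 10 cells in a library (normoxia blue, hypoxia red). The arrow marks the upper bound of a class with 0 UMIs. Hypoxia points lie right of normoxia points in the 4 groups with both, and the Platelet-like point lies at 1408 CPM.

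The Platelet-like cells carried *Hba-a1* without *Hba-a2*. This class, which was named from the 8 platelet markers, had 18 normoxia cells. Each marker had a UMI in them, from *Gp1bb* in 2 cells to *Pf4* in 17. The 5 hypoxia cells are under the minimum of 10 and are given as counts. In normoxia the Platelet-like cells held 53 haemoglobin UMIs, of which 47 were *Hba-a1*, 0 *Hba-a2*, 5 *Hbb-bs*, 1 *Hbb-bt* and 0 *Alas2*. Their *Hba-a1* level was 1249 CPM (918 to 1661), 172 times that of EC-like cells (104 to 292), and the level of both β genes was 11.5 times that of EC-like cells (4.00 to 26.8). In UMIs per cell these ratios were 80.8 (48.8 to 137) and 5.375 (1.88 to 12.6). The epithelial transcript *Sftpc* was also above EC-like cells there, 4.86 times (2.93 to 7.61) in CPM and 2.28 times (1.38 to 3.57) per cell. Median depths were 1100 UMIs in Platelet-like and 4093.5 UMIs in EC-like cells of normoxia. The 3 UMIs in hypoxia cells were also all *Hba-a1*.

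*Hba-a1* was found in 8 of the 18 cells, with 13, 11, 9, 4, 4, 3, 2 and 1 UMIs, and in 2 of the 5 hypoxia cells, with 2 and 1. The 3 droplets nearest to the rich threshold were all Platelet-like. *Hba-a1* made up 47 of 47 α UMIs in these cells (an exact lower bound of 92.5%), against 60.7% (59.6 to 61.8) in the rich droplets, 57.4% (44.1 to 70.0) in the other kept cells of normoxia and 56.1% (47.2 to 64.7) in those of hypoxia. The α to β ratio was 7.83 (3.34 to 22.4), against 0.814 in the rich droplets. Haemoglobin UMIs per Platelet-like cell of normoxia had a variance of 5.73 times their mean. Bounds and intervals that take the UMIs as independent leave out this spread over cells. Of the 15 measured genes of the erythroid list, *Gata1* had 1 UMI in the 18 cells, and 14 were at 0. Since 57.3% of 90-base windows in the last 300 bases of *Hba-a1* are shared with *Hba-a2*, reads of shared stretches may be counted for neither gene, and the part of read assignment in this pattern was not tested.

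Genes of the EC and myeloid marker lists were counted in the Platelet-like class too. The 18 cells held 388 UMIs of the 12 EC markers, 10311 CPM against 18997 CPM in normoxia EC-like cells, and 73 UMIs of 4 of the 12 myeloid markers. *Vwf* was the EC marker found in most cells, 14 of the 18. *Lyz2* (52 UMIs) and *Fcer1g* (19 UMIs) gave most of the myeloid UMIs. Whether the UMIs of these lists came from other cells was not tested. The 3 cells with the most *Hba-a1* held 104, 86 and 234 platelet marker UMIs and 13, 5 and 14 EC marker UMIs. The 3 cells with the most EC marker UMIs (99, 91 and 91) had 4, 0 and 0 *Hba-a1* UMIs. In droplets that the limits had removed, which no cluster used, 15 of normoxia held at least 2 of *Pf4*, *Ppbp*, *Itga2b* and *Gp9*. This set was chosen after the pattern had been seen. It held 4 *Hba-a1* UMIs in 4 droplets, 39.8 CPM (10.8 to 102), and 1 *Hba-a2* UMI, and removed droplets with none of these 4 markers had 7.39 CPM (4.23 to 12.01) of *Hba-a1*. Another 10 kept cells of normoxia outside the class held at least 2 of these markers, with 2 UMIs of *Hba-a1* and 2 of *Hba-a2*.

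Outside the rich droplets and the Platelet-like cells, the 4 globins pooled over both libraries had shares near those summed over the rich droplets. Over kept cells without Platelet-like cells of both libraries, *Hbb-bs* gave 43.7% (38.9 to 48.5) of the haemoglobin UMIs, *Hba-a1* 25.5% (21.4 to 29.9), *Hba-a2* 19.6% (16.0 to 23.7) and *Hbb-bt* 10.5% (7.77 to 13.8). Each of these intervals held the share summed over the rich droplets. In single rich droplets *Hbb-bs* ranged from 29.9% to 47.6%, *Hba-a1* from 22.2% to 40.9%, *Hba-a2* from 9.85% to 21.7% and *Hbb-bt* from 7.23% to 15.2%. In the kept cells without Platelet-like cells *Hbb-bs* made up 80.6% (74.9 to 85.5) of the β UMIs, against 78.2% (77.3 to 79.0) summed over the rich droplets. By library the α to β ratio of these cells was 0.635 (0.453 to 0.885) in normoxia and 0.971 (0.758 to 1.24) in hypoxia. In droplets outside the rich ones an α UMI was seldom joined by a β UMI. A β UMI was found in 10.1% (4.95 to 17.8) of 99 normoxia droplets with an α UMI and in 6.75% (5.72 to 7.90) of those without, and in 18.1% (12.1 to 25.3) and 15.04% (12.4 to 18.0) in hypoxia.

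In hypoxia the number of haemoglobin UMIs per droplet did not rise with the depth of the droplet. Over quartiles of the UMIs of other genes, whose medians rose 9.06-fold from 736 to 6665.5, the mean was 0.483, 0.366, 0.391 and 0.361 haemoglobin UMIs per droplet, and the highest over the lowest quartile was 0.749 (0.545 to 1.02). The level in CPM fell from 648 to 45.0. In hypoxia EC-like cells, whose depth rose 7.69-fold, the means were 0.398, 0.402, 0.336 and 0.361, a ratio of 0.905 (0.589 to 1.39).

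In normoxia the count per droplet was lower at every depth and rose in the deepest quartile. Over a 9.63-fold range of depth the means were 0.126, 0.134, 0.123 and 0.188, with a highest over lowest ratio of 1.49 (1.09 to 2.05), and the level fell from 182 to 22.1 CPM. Over kept cells alone that ratio was 1.17 (0.797 to 1.73), an interval that held 1. In normoxia EC-like cells the means were 0.0619, 0.0829, 0.109 and 0.191, a 3.08-fold rise (1.57 to 6.49) over a 3.56-fold range of depth, and the level lay between 23.0 and 32.3 CPM in the 4 quartiles. At matched depth, over all droplets outside the rich ones, the hypoxia mean was higher in each of 5 bins. With 500 to 1000 other UMIs it was 0.476 against 0.128 per droplet, a ratio of 3.72 (2.73 to 5.06), with 4000 to 8000 it was 0.348 against 0.188 (1.86, 1.30 to 2.62), and with at least 8000 it was 0.429 against 0.186 (2.30, 1.37 to 3.86). In EC-like cells the ratio was 6.02 (2.36 to 19.7) with 1000 to 2000 other UMIs, then 4.33, 2.58 and 2.12 in the deeper bins. With at least 8000 the EC-like interval held 1 (0.996 to 4.73).

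**Figure D5:**
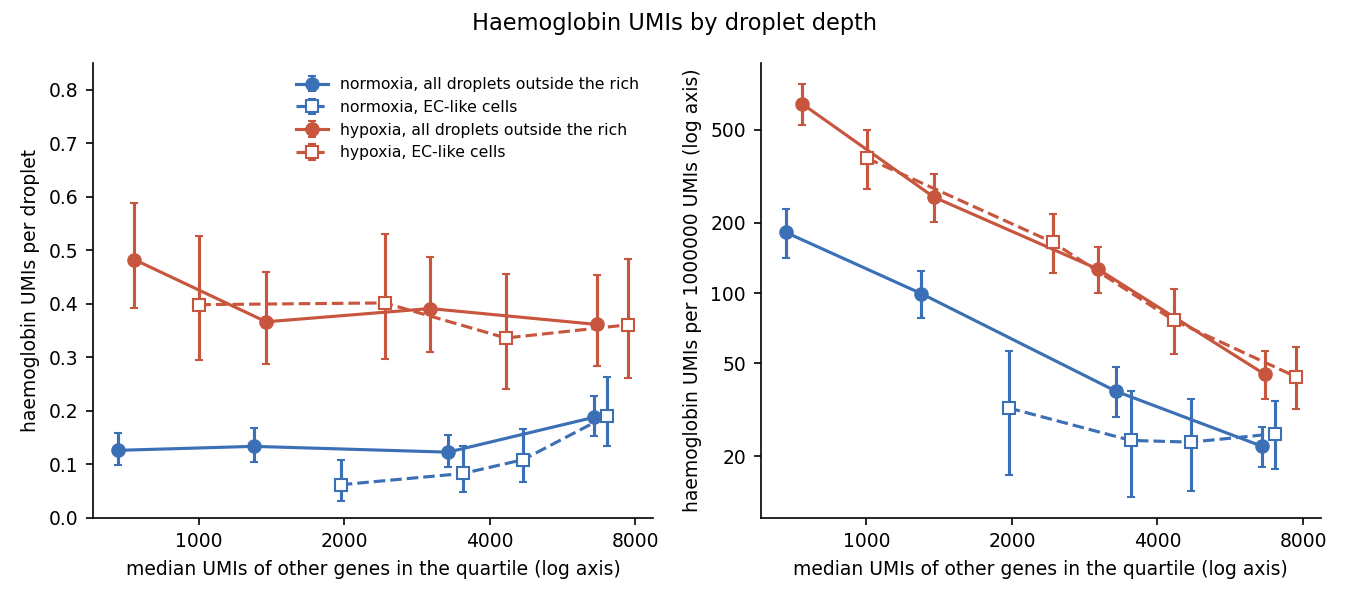
Means with exact Poisson 95% intervals by quartile of droplet depth, as haemoglobin UMIs per droplet on the left and in CPM on a log axis on the right, for all droplets outside the rich ones (filled) and EC-like cells (open). In hypoxia (red) the count per droplet stays between 0.336 and 0.483 while the level falls with depth, and in normoxia EC-like cells (blue, open) the count rises and the level stays between 23.0 and 32.3 CPM.

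Transcripts of epithelial cells, which the CD326 depletion was meant to remove, were also higher in EC-like cells of hypoxia. *Scgb1a1*, which encodes the secretoglobin of club cells, was at 292 CPM in EC-like cells of normoxia and 1149 CPM in those of hypoxia, a ratio of 3.94 (3.66 to 4.25). Single cells held 427 of the 1005 *Scgb1a1* UMIs of normoxia and 1466 of the 2256 of hypoxia, and without these 2 cells the ratio was 2.42 (2.17 to 2.69). *Sftpc*, the surfactant protein of AT2 cells, had 109 and 178 CPM, a ratio of 1.63 (1.41 to 1.89). In Fibroblast-like cells the ratios in CPM were 7.21 (5.19 to 9.97) for *Scgb1a1* and 2.93 (1.90 to 4.42) for *Sftpc*. Those cells were shallower in hypoxia, with median depths of 3411 UMIs in normoxia and 1620 in hypoxia. In UMIs per Fibroblast-like cell, *Scgb1a1* had 0.487 in normoxia and 1.94 in hypoxia, and *Sftpc* 0.545 and 0.886. Per EC-like cell, *Sftpc* rose 1.59-fold (1.19 to 2.12) from the lowest to the highest depth quartile in normoxia and 1.24-fold (0.919 to 1.69) in hypoxia. The part of each library's load of free RNA in the haemoglobin ratio was not tested, and library and condition cannot be told apart.

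Genes that make haem, remove haem and haemoglobin or handle iron were compared between the libraries. Of 8, 7 and 5 such genes with at least 20 UMIs, 1 gene in all was at least 2-fold higher in hypoxia, against 2.85% of all genes. Of 8 genes of haem synthesis outside *Alas2*, none was at least 2-fold higher in hypoxia and 1 was at most 0.5-fold with an interval below 1, against 11.1% of all genes in that direction. That gene, *Alad*, was at 39.4 CPM in normoxia against 17.9 CPM, a ratio of 0.453 (0.316 to 0.636), and 0.483 (0.311 to 0.730) within EC-like cells, where 4.53% of genes were called lower. The housekeeping enzyme *Alas1*, which opens haem synthesis outside the erythroid line, had 83.3 and 83.2 CPM, a ratio of 0.999 (0.838 to 1.19).

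Of 7 measured genes of haem and haemoglobin removal with at least 20 UMIs, 1 was higher and 2 were lower, where 2.85% of all genes were called higher and 11.1% lower. *Hp* (haptoglobin, which binds free haemoglobin) had a ratio of 2.05 (1.30 to 3.22), *Blvrb* (a biliverdin reductase) 0.431 (0.272 to 0.659) and *Lrp1* (a receptor that takes up the haem carrier haemopexin) 0.155 (0.111 to 0.211). Within EC-like cells neither lower gene was called, with *Lrp1* at 0.683 (0.241 to 1.71) and *Blvrb* at 0.517 (0.270 to 0.933). *Hp* had 44 and 40 UMIs in kept cells of normoxia and hypoxia, of 871 in all barcodes. It had fewer than 20 UMIs in EC-like cells and was not compared there. The share of Fibroblast-like cells among kept cells also differed, at 14.0% in normoxia and 5.08% in hypoxia, and its part in the *Lrp1* ratio was not tested. *Hmox1*, which breaks down haem, had 7.15 and 13.1 CPM, a ratio of 1.83 (1.09 to 3.04) that missed the 2-fold limit. Within EC-like cells the *Hmox1* ratio was 1.62 (0.876 to 2.97), an interval that held 1. Of 5 genes of iron handling, none was higher, and *Trf* (transferrin) was lower at 0.261 (0.189 to 0.352), with 0.447 (0.235 to 0.797) in EC-like cells, so that 1 of 5 was called lower in each, against 11.1% and 4.53% of all genes. The ferritin chains *Fth1* and *Ftl1* had ratios of 0.749 (0.723 to 0.777) and 0.868 (0.829 to 0.910).

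Of 10 red cell transcripts shared with other tissues with at least 20 UMIs in kept cells, none was at least 2-fold higher and *Car2* (carbonic anhydrase 2) was lower, at 132 and 51.4 CPM, a ratio of 0.389 (0.318 to 0.474). Their median ratio was 0.936, and the counts are near the 2.85% higher and 11.1% lower of all genes. Of the other globins of the mouse genome, *Cygb* (cytoglobin) had the most UMIs, with 226, none of them in the rich droplets. In kept cells of normoxia *Cygb* had 139 UMIs (26.9 CPM). That was above each of the 5 transcripts there, of which *Hbb-bs* was highest with 85 UMIs (16.4 CPM). Its hypoxia/normoxia ratio in kept cells was 0.162 (0.0761 to 0.307). Within EC-like cells the *Cygb* ratio was 0.413 (0.101 to 1.27), an interval that held 1, with counts of only 17 and 4. *Cygb* was among the leading genes of a Fibroblast-like cluster with 14 normoxia cells and 1 hypoxia cell. The part of the Fibroblast-like share in the kept-cell *Cygb* ratio was not tested. *Ngb* (neuroglobin) had 12 UMIs in all. *Hbq1a*, an α-like globin named after its values were seen, had 3 UMIs, all in the rich droplets.

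Over the 9 class and library groups with at least 10 cells, the genes whose level was most like that of the 5 transcripts were *Ubl5* (Pearson r = 0.963), *Lyz2* (0.956), *2310061I04Rik* (0.942), *Nudt3* (0.937) and *Derl1* (0.932), out of 9828 genes. These are descriptions over 9 points that share 2 libraries, and 1 of the 9 is the Platelet-like group of 18 cells.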

How the data were processed

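Lung cells were profiled with the 10x Chromium 3' v3.1 chemistry in 1 normoxia and 1 hypoxia library. The authors aligned reads to mm10 and deposited raw counts of UMIs for each gene and barcode. The header names Cell Ranger 6.1.2, and the labels name Cell Ranger and Seurat without versions. Such counting drops reads that map to several genes, which touches the globin pairs. Barcodes were already called as cells, with at least 501 UMIs, so emptier droplets were not analysed here.

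Cells were kept if they had 200 to 4000 genes and no more than 5% mitochondrial UMIs. Doublets were limited by the upper limit on genes alone. Clusters were made by the Leiden method (resolution 2, 30 components, 15 neighbours) in scanpy 1.11.5 with igraph 0.11.9, and named from marker lists. A rule that leaves B or T cell clusters led by myeloid genes unnamed was added after the data were seen. 1 barcode occurs in both libraries and holds 0 haemoglobin UMIs. Exact 95% intervals (Poisson for levels, Clopper-Pearson for shares, conditional binomial for ratios) came from scipy 1.17.1. Beside a count of 0 stands the share of 3 counts or the exact upper bound. Thinning drew 1000 UMIs per cell. The statistics were tested on simulated data.

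The 5 transcripts and all gene lists were chosen with earlier results of these data known. Named genes are the 5, list genes with at least 10 UMIs, the leading genes of the rich droplets with at least 20 UMIs there (10 were allowed for and 6 reached it), and the 5 genes closest in profile by Pearson correlation of log2(CPM + 1), among genes with at least 50 UMIs. *Ahsp* of the erythroid list was not analysed here, and some genes of the red cell lists are counted but not reported by name. Positions are from GENCODE and promoters from RefSeq. The alternatives were the limits on genes and mitochondrial UMIs, all barcodes, other thresholds for rich droplets, other Leiden resolutions, a marker gate, a mean over cells, other denominators and scalings, and other thinning depths. Leaving out the Platelet-like cells, counting UMIs per cell and leaving out the cells richest in an epithelial transcript were chosen after seeing the data.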

Additional observations from a re-analysis of the deposited data

Results flagged for a closer look

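The ratio of haemoglobin UMIs per droplet between deep and shallow droplets was above 1 in normoxia and below 1 in hypoxia. The highest over the lowest depth quartile was 1.49 in normoxia and 0.749 in hypoxia over all droplets outside the rich ones. In EC-like cells it was 3.08 in normoxia and 0.905 in hypoxia. The hypoxia intervals held 1 (0.545 to 1.02 and 0.589 to 1.39), so no fall was shown. Over kept cells the normoxia value was 1.17 (0.797 to 1.73), and in Fibroblast-like cells both libraries were above 1, at 1.31 and 1.5, with intervals that held 1. The difference between the libraries was not tested, and each library is 1 sample.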

How the results depend on the processing

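Of 151 alternative values over 38 results, 127 stayed near the reported value (within its interval, or within 1.5 times for counts), 23 moved beyond that and 1 reversed. With all barcodes, the level was 2173 CPM in normoxia and the ratio reversed to 0.0555, which the 6 rich droplets account for by construction. As a mean over cells, the levels were 78.5 CPM in normoxia and 260 CPM in hypoxia, 183 CPM in hypoxia EC-like cells, 83.5 CPM in normoxia Fibroblast-like cells, and the EC-like ratio was 6.75. Without Platelet-like cells, the normoxia level was 31.0 CPM, the ratio 3.79, that of *Hba-a1* 4.74 and the *Hba-a1* share of α UMIs in other normoxia droplets 56.4% in place of 70.3%. With at most 10% mitochondrial UMIs, EC-like cells of normoxia were at 33.1 CPM and those of hypoxia at 79.0 CPM, a ratio of 2.39, and hypoxia AT1-like cells had 0 UMIs, so that their level and ratio were 0. The marker gate gave 38.9 CPM in normoxia EC-like cells and a ratio of 2.76, and Leiden resolution 1 gave 77.3 CPM in hypoxia EC-like cells. Without the cell richest in *Scgb1a1* of each library, its EC-like ratio was 2.42. The causes of these shifts were not tested. Thinned to 2000 UMIs, 5.90% of normoxia and 16.7% of hypoxia cells had a UMI. Among kept cells there were 0 rich droplets in normoxia, holding 0% of the UMIs. Counting droplets with 10 UMIs at any share gave 9 in normoxia, the 3 added being Platelet-like.

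No Platelet-like cluster was formed at 10% mitochondrial UMIs, and the marker gate left 1 normoxia cell, so that class has no value there. The gate left 2 hypoxia AT1-like cells, also without a value. The median of UMIs per droplet was 0 in every quartile and gives no ratio, and no count of genes exists for the hypoxia library alone, which has no rich droplet. No paired analysis was possible because normoxia and hypoxia are 1 library each. Few UMIs limit the class levels: outside EC-like, Platelet-like and unnamed cells, no class had more than 29 haemoglobin UMIs in a library.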
